A study of Caenorhabditis elegans with 10 samples.

Results

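The comparison described here sets daf-2;math-33 double mutants of Caenorhabditis elegans against daf-16;daf-2 double mutants, using 4 of the 10 libraries of the study. The members are the libraries of daf-2(e1370);math-33(tm3561) and of daf-16(mu86);daf-2(e1370), each at 15 and at 25 °C, and they were paired by temperature. Both strains carry daf-2(e1370), a temperature-sensitive allele of the insulin/IGF-1 receptor gene, so they differ in which other gene is mutated: math-33 with daf-16 intact, or daf-16 with math-33 intact. The comparison asks which differences remain between daf-2 worms that lack MATH-33 and daf-2 worms that lack DAF-16. The other libraries are N2 (wild type), math-33(tm3561) and daf-2(e1370) at both temperatures, and they serve here as reference levels. Each library holds poly(A) RNA of about 3000 pooled whole worms, which were raised at 15 °C and either stayed there or spent 22 hr at 25 °C from the late larval stages. There was 1 library per strain and temperature, so no p-value is given where a single library is set against another. The strains are called the math-33 double mutant and the daf-16 double mutant below, and math-33(tm3561) alone is the math-33 single mutant.

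Insulin-like signalling through DAF-2 activates AKT kinases, which phosphorylate the FOXO transcription factor DAF-16 and keep it in the cytoplasm. When DAF-2 function is reduced, DAF-16 enters the nucleus and raises genes of stress defence, immunity, metabolism and dauer life, while other genes fall. DAF-16 is also marked by ubiquitin for degradation, and MATH-33 is a deubiquitylating enzyme that removes ubiquitin and stabilises it. A daf-16 double mutant therefore gives the level of each target without DAF-16, against which the levels in the math-33 double mutant can be read.

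Levels are FPKM (fragments per kilobase of transcript, scaled to library depth). Differences are the math-33 double mutant minus the daf-16 double mutant in log2(FPKM + 1), and a gene is called higher or lower at 1 log2 unit. Depth recovered from the FPKM values was 28.12 and 27.55 M reads at 15 and 25 °C in the math-33 double mutant, and 25.39 and 29.69 M in the daf-16 double mutant. Folds are given with exact 95% intervals for a ratio of 2 counts of read pairs, and these cover counting error only. Of 14700 genes tested, 1376 (9.36%) were higher and 245 (1.67%) lower in the math-33 double mutant at 25 °C. At 15 °C 962 (6.54%) were higher and 216 (1.47%) lower. The direction was shared at both temperatures by 550 higher genes (3.74%) and 30 lower genes (0.204%). Genes that were higher made up 84.9% of those past the limit at 25 °C and 81.7% at 15 °C. That share depended on the scaling: it was 67.8% and 58.4% once each library was centred on its median, which moved the median of all genes by 0.195 at 25 °C and 0.216 at 15 °C, and 67.5% and 58.3% after quantile normalization. Medians of gene lists are therefore given beside the median of all genes, 0.07 at 25 °C and 0.15 at 15 °C. The tissue is whole nematode, in which fewer cells of a type and less RNA per cell cannot be told apart.

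The mutated genes were read first. Transcripts of math-33 (chrV:11114026-11118135, build ce10) were at 14.4 and 13.9 FPKM in the math-33 double mutant at 15 and 25 °C, and at 77.6 and 69.3 FPKM in the daf-16 double mutant. They were 4.98 times lower (4.57 to 5.42) at 25 °C, and the groups did not overlap. The other libraries followed the labels, with 15.9 and 14.1 FPKM in math-33 against 59.8 to 79.3 FPKM in N2 and daf-2. The daf-16 transcript with the highest mean lies at the 3' end of the gene, at 81.3 and 95.02 FPKM in the math-33 double mutant and 182 and 164 FPKM in the daf-16 double mutant. In daf-2 without another mutation it was at 135 and 130 FPKM. The table lists 8 daf-16 transcripts, which share the end at that 3' side and therefore reads. In all 8, longer ones included, both libraries of the daf-16 double mutant were above the other 8 libraries, at 92.6 to 182 FPKM. The transcript levels thus do not show a loss of daf-16 RNA in the strain labelled daf-16(mu86), and they do not check that label, because the extent of the deletion is unknown from the sources used here.

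DAF-16 activated targets included a larger share of genes higher in the math-33 double mutant than all genes did, at both temperatures, while their median was above that of all genes at 25 °C alone. The list was chosen with earlier results of these data known, so its shares are a description and not independent support. Of 85 listed targets 59 were expressed highly enough to be tested. At 25 °C 15 of these 59 (25.4%, beside 9.36% of all genes) were higher and 0 lower, with a median difference of 0.51. At 15 °C 11 (18.6%, beside 6.54%) were higher and 1 was lower, the insulin-like gene ins-18. The median at 15 °C was 0.09, beside 0.15 for all genes, and after centring it was -0.12, beside -0.068 for all genes. The difference was above 0 for 42 of the 59 at 25 °C and for 38 at 15 °C, beside 57.4% and 64.7% of all genes. The targets higher at both temperatures numbered 9 (15.25%, beside 3.74% of all genes): mtl-1, tts-1, F21C10.11, F17B5.1, scl-1, thn-2, ftn-1, sod-3 and sodh-1.

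**Figure D1:**
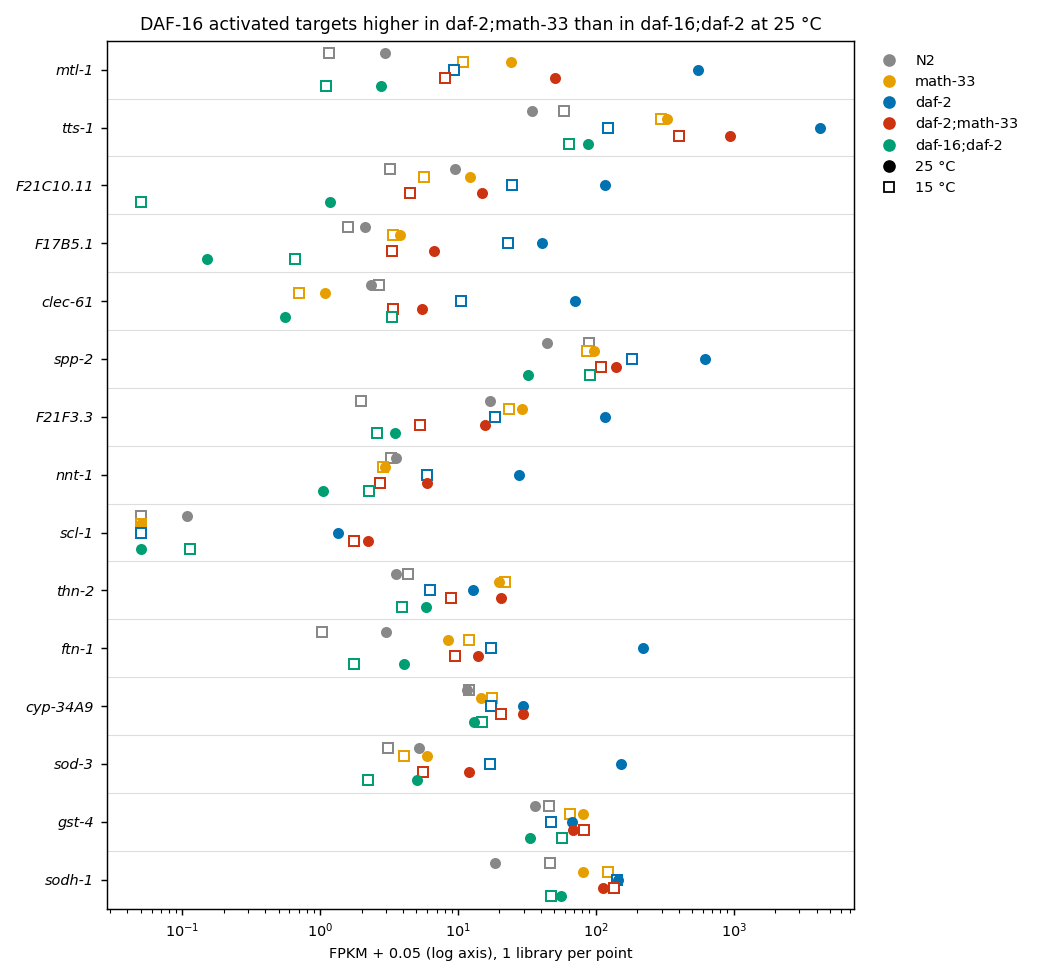
FPKM plus 0.05 on a log axis for the 15 DAF-16 activated targets that were at least 1 log2 unit higher in the math-33 double mutant than in the daf-16 double mutant at 25 °C; each point is 1 library, filled circles are 25 °C, open squares are 15 °C, colours are the 5 genotypes, and values of 0 stand at 0.05. The daf-2 library at 25 °C lies to the right of the math-33 double mutant library for most of these genes, and by at least 1 log2 unit for 10 of the 15.

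These 15 genes were chosen for a high level in the math-33 double mutant and a low level in the daf-16 double mutant, so their standing against other strains is a description. At 25 °C daf-2 was at least 1 log2 unit above the math-33 double mutant for 10 of them. For 14 of the 15 the math-33 double mutant was above N2 and for 13 above math-33, while the daf-16 double mutant was below N2 for 10. The math-33 single mutant, in which the receptor is intact, was itself at least 1 log2 unit above N2 for 7 of the 15. It was so for 12 of the 59 targets tested and for 608 of all 14700 genes. Over the 59 targets tested, the math-33 double mutant was lower than daf-2 for 31 and higher for 2 at 25 °C, with a median of -1.11. Over all 14700 genes it was lower for 605 and higher for 1462, with a median of 0.06. The daf-16 double mutant was higher than N2 for 6 of the 59 and lower for 7, with a median of 0.15. Over all 14700 genes it was higher for 372 and lower for 819, with a median of -0.02. Setting daf-2 against the daf-16 double mutant uses the same daf-16 double mutant libraries again, so its values are given only side by side. Over the 59 targets at 25 °C its median was 1.404, with 39 higher and 2 lower. Over all 14700 genes the median was 0.0006, with 883 higher and 515 lower.

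Among stress-defence targets 5 of 15 were higher at 25 °C (33.3%, beside 9.36% of all genes) and 4 at 15 °C (26.7%, beside 6.54%). The medians were 0.66 and 0.18. The metallothionein gene mtl-1 (chrV:6691468-6691815), whose product binds metal ions, had 8.06 and 50.3 FPKM in the math-33 double mutant at 15 and 25 °C, against 1.05 and 2.69 in the daf-16 double mutant. This was 18.7-fold (9.59 to 41.6) at 25 °C and 7.52-fold (2.30 to 38.9) at 15 °C, where the daf-16 double mutant rested on 3 read pairs. In daf-2 the gene stood at 9.34 and 554 FPKM, in N2 at 1.12 and 2.88, and in math-33 at 10.8 and 24.05. Thus the math-33 double mutant lay near daf-2 at 15 °C and far below it at 25 °C.

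The iron-storage gene ftn-1 had 9.50 and 13.8 FPKM in the math-33 double mutant and 1.70 and 4.04 in the daf-16 double mutant, against 17.2 and 221 in daf-2. The mitochondrial superoxide dismutase gene sod-3, a common reporter of DAF-16 activity, had 5.57 and 11.9 FPKM in the math-33 double mutant and 2.18 and 5.02 in the daf-16 double mutant. Its fold was 2.56 (1.47 to 4.65) at 15 °C and 2.35 (1.66 to 3.37) at 25 °C, while daf-2 reached 153 FPKM at 25 °C. For both genes the lower library of the math-33 double mutant lay above the higher library of the daf-16 double mutant, by a narrow margin in sod-3. The transhydrogenase gene nnt-1 differed at 25 °C, with 5.95 against 0.997 FPKM, and hardly at 15 °C, with 2.65 against 2.23. The glutathione S-transferase gene gst-4 was 2.05-fold (1.78 to 2.37) higher at 25 °C, and its 68.1 FPKM equalled the 67.7 FPKM of daf-2.

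Some other stress targets were above the daf-16 double mutant at 25 °C by less than 1 log2 unit. The small heat-shock gene hsp-12.3 had 3.995 FPKM in the math-33 double mutant at 25 °C and 2.16 in the daf-16 double mutant, while daf-2 had 180. The catalase gene ctl-1 had 5.19 against 2.67 FPKM, and djr-1.2 had 3.58 against 1.69. None of these 3 reached 1 log2 unit in log2(FPKM + 1), a scale that understates changes at such low levels.

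Over the 8 immune targets the median was 1.22 at 25 °C, with 4 higher (50%, beside 9.36% of all genes). At 15 °C it was 0.14, with 2 higher (25%, beside 6.54%). The C-type lectin gene clec-61 had 3.31 and 5.43 FPKM in the math-33 double mutant at 15 and 25 °C, against 3.27 and 0.503 in the daf-16 double mutant. Its 10.8-fold (5.43 to 24.3) difference at 25 °C therefore lay mostly in the low daf-16 double mutant value there. The saposin-like gene spp-2, of a family of membrane-active peptides, behaved alike, with 109 and 141 FPKM against 90.5 and 32.4, and daf-2 at 623 FPKM at 25 °C. The thaumatin-like gene thn-2 was higher at both temperatures, with 8.80 and 20.6 FPKM against 3.89 and 5.83. At 25 °C its level in the math-33 double mutant was also above the 12.76 FPKM of daf-2 and close to the 19.9 FPKM of math-33. The lysozyme gene lys-7 had 67.4 against 38.7 FPKM at 25 °C, short of 1 log2 unit, and daf-2 had 463.

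The gene scl-1, which encodes a secreted cysteine-rich protein, was at 1.72 and 2.17 FPKM in the math-33 double mutant and at 0.064 and 0 in the daf-16 double mutant. At 25 °C the fold was 6.47, taking a floor of 3 read pairs for the daf-16 double mutant, which gives no lower limit of the fold. At 15 °C it was 13.5-fold (2.08 to 570.0), from 1 read pair in the daf-16 double mutant. The other 3 strains were at or below 0.058 FPKM, except daf-2 at 25 °C with 1.30.

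Metabolic targets had the lowest medians of the 4 groups of activated targets, 0.20 at 25 °C and 0.07 at 15 °C over 21 genes. Only sodh-1 and F21F3.3 were higher at 25 °C among these 21 (9.52%, beside 9.36% of all genes), a share near that of all genes. The alcohol dehydrogenase gene sodh-1 had 135 and 113.3 FPKM in the math-33 double mutant against 46.96 and 55.6 in the daf-16 double mutant, and daf-2 had 142.2 and 146. Here the levels of the math-33 double mutant and of daf-2 lay near each other at both temperatures, and math-33 itself had 122 FPKM at 15 °C. F21F3.3 had 5.24 and 15.7 FPKM against 2.54 and 3.43, with 117 in daf-2 at 25 °C. The gluconeogenesis gene pck-1 had 141 against 126 FPKM at 25 °C, and the fatty acid desaturase gene fat-5 had 91.2 against 49.9.

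Targets known from daf-2 arrays and from dauer larvae had medians of 0.60 and 0.39 over 15 genes. At each temperature 4 were higher (26.7%, beside 9.36% of all genes at 25 °C and 6.54% at 15 °C). At 15 °C 1 was lower (6.67%, beside 1.47%). The long noncoding RNA tts-1 (chrX:1504126-1504836), which associates with ribosomes in daf-2 worms, had 401 and 941 FPKM in the math-33 double mutant against 64.2 and 87.03 in the daf-16 double mutant. That is 6.26-fold (5.71 to 6.86) at 15 °C and 10.8-fold (10.07 to 11.6) at 25 °C. The daf-2 library at 25 °C held 4248 FPKM, but at 15 °C daf-2 held 122, less than the math-33 double mutant. In N2 and math-33 the levels at 25 °C were 34.4 and 329 FPKM.

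F21C10.11 (chrV:9123467-9123787) had 4.45 and 14.8 FPKM in the math-33 double mutant, and 0 and 1.12 in the daf-16 double mutant. The fold was at least 4.51 at 15 °C against the same floor and 13.2 (4.84 to 50.4) at 25 °C. F17B5.1 had 3.29 and 6.65 FPKM against 0.61 and 0.101. Its 76.5-fold (25.8 to 374) difference at 25 °C rested on 3 read pairs in the daf-16 double mutant. For both genes every other strain lay above the daf-16 double mutant at each temperature. The cytochrome P450 gene cyp-34A9 had 29.4 against 12.9 FPKM at 25 °C, equal to daf-2 at 29.7.

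The paralogs F15E11.12 and F15E11.15, whose reads may not be separable, gave no such difference. F15E11.12 had 49.4 FPKM in the math-33 double mutant at 25 °C and 70.5 in the daf-16 double mutant, against 610 in daf-2. The gene dod-3 had 1.14 and 0.212 FPKM, against 25.7 in daf-2. The hydrophilic LEA protein gene lea-1, linked to tolerance of drying, had 36.9 and 23.98 FPKM, against 345 in daf-2.

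A test over both temperatures was made with limma on all 10 libraries, with genotype and temperature terms. It called 0 of the 59 activated targets at a Benjamini-Hochberg adjusted p of 0.05, and 11 had an unadjusted p under 0.05, beside 1922 of all 14700 genes. The nearest was F21C10.11, with an adjusted p of 0.064. This fit shares one spread over 5 genotypes and takes the temperature response as common to them. A fit of the 4 libraries alone, with 1 residual degree of freedom, called 566 genes higher (3.85%) and 39 lower (0.265%), among them 8 of the 59 activated targets as higher: tts-1, F21C10.11, mtl-1, sodh-1, ftn-1, F17B5.1, thn-2 and scl-1. The spread behind these p-values is what the genotype and temperature terms leave, that is, how far the temperature response differed among strains. It does not measure the spread among cultures, and no cultures were replicated.

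A few genes that DAF-16 represses were lower in the math-33 double mutant. Of 17 tested, 3 were lower at 25 °C (17.6%, beside 1.67% of all genes) and 0 higher, with a median of -0.15. At 15 °C 2 of these 3 were again lower (11.8%, beside 1.47%), 0 were higher and the median was 0.00. The infection-response gene F35E12.5 (irg-5, chrV:13737079-13738458) had 98.5 and 203 FPKM in the math-33 double mutant against 211 and 1004 in the daf-16 double mutant. It was 4.94 times lower (4.75 to 5.14) at 25 °C, while daf-2 stood further down at 29.4 and 17.5 FPKM and N2 at 96.7 and 349. C36C5.15 had 8.95 and 3.10 FPKM against 21.4 and 16.8, with daf-2 at 0.264 FPKM at 25 °C. The lectin gene clec-4 had 4.64 FPKM in both strains at 15 °C, and 5.16 against 15.4 at 25 °C. Others did not reach 1 log2 unit: dod-22 had 15.0 against 22.5 FPKM at 25 °C, with 1.08 in daf-2, and F55G11.2 had 27.6 against 42.4, with 1.32 in daf-2.

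Genes of the PMK-1 immune pathway, a p38 kinase route of the intestine, had medians of -0.08 and -0.10 over 26 genes. At 25 °C 4 were lower (15.4%, beside 1.67% of all genes): F35E12.5, ilys-5, cnc-2 and spp-18. The 1 that was higher (3.85%, beside 9.36%) was clec-60. The invertebrate lysozyme gene ilys-5 had 505 and 250 FPKM in the math-33 double mutant against 797 and 1010 in the daf-16 double mutant, with daf-2 at 169 at 25 °C. The lectin gene clec-60 had 5.45 and 13.7 FPKM against 6.55 and 2.63. Of 37 regulators and partners of DAF-16, math-33 alone passed 1 log2 unit at 25 °C, and math-33 and daf-16 did at 15 °C. The E3 ligase gene rle-1, which promotes DAF-16 degradation, had 43.5 against 47.2 FPKM at 25 °C.

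**Figure D2:**
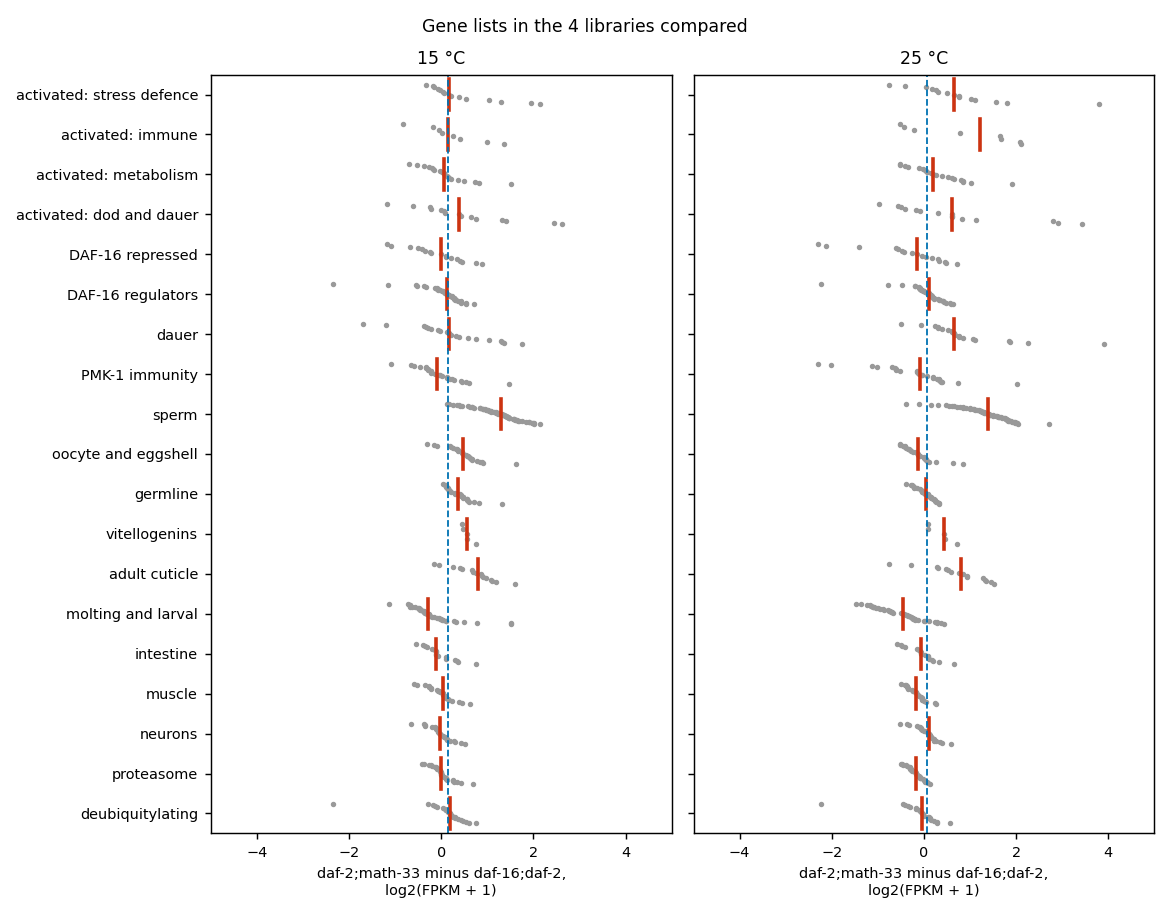
Differences in log2(FPKM + 1) between the math-33 double mutant and the daf-16 double mutant for 19 gene lists at 15 °C (left) and 25 °C (right); grey points are genes, red bars are list medians and the dashed blue line is the median of all genes tested. The sperm list stands highest at both temperatures, with medians of 1.30 and 1.398, and the activated stress, immune and dod lists lie to the right of the line at 25 °C.

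Among all genes limma called 4 over both temperatures, 2 higher (0.0136% of those tested) and 2 lower (0.0136%). They are shown across the strains in the plot of 10 genes by strain. The largest difference was in K06G5.1 (kola-4 in the current annotation, chrX:14214905-14218914), with 11.16 and 9.30 FPKM in the math-33 double mutant and 279 and 252 in the daf-16 double mutant. It fell by 4.57 log2 units (SE 0.12, adjusted p = 1.08e-05 in limma). The math-33 single mutant had 7.25 and 6.82 FPKM, and N2 and daf-2 had 207 to 253, so the 4 libraries with math-33(tm3561) did not overlap the other 6. The gene math-33 itself fell by 2.30 log2 units (SE 0.13, adjusted p = 0.00178).

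F56A4.3 (chrV:2453426-2456083) rose by 4.21 log2 units (SE 0.35, adjusted p = 0.016 in limma). It had 18.2 and 20.7 FPKM in the math-33 double mutant and 0 and 0.214 in the daf-16 double mutant, which is at least 24.1-fold at 15 °C, and 97.0-fold (16.97 to 3873) at 25 °C from 1 read pair in the daf-16 double mutant. N2 had 25.8 and 25.96 FPKM and math-33 had 11.7 and 9.07, but daf-2 had 0.362 and 2.15. H22K11.2 (bgal-2 in the current annotation, chrX:6784395-6787225) rose by 2.37 log2 units (SE 0.24, adjusted p = 0.0437). Its levels were 10.8 and 10.8 FPKM against 1.44 and 1.12, with 10.6 and 13.04 in N2, 9.68 and 10.2 in math-33, and 1.48 and 0.870 in daf-2. For both genes the math-33 double mutant lay with N2 and math-33, and the daf-16 double mutant lay with daf-2. Without any 1 of the 4 libraries compared, limma called K06G5.1 alone among these genes. The adjusted p of math-33 was then 0.0614 to 0.0912, that of F56A4.3 0.307 to 0.466 and that of H22K11.2 0.376 to 0.564. With the remaining 3 libraries of the pair, 1 strain rests on a single library that is taken to vary like the others.

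**Figure D3:**
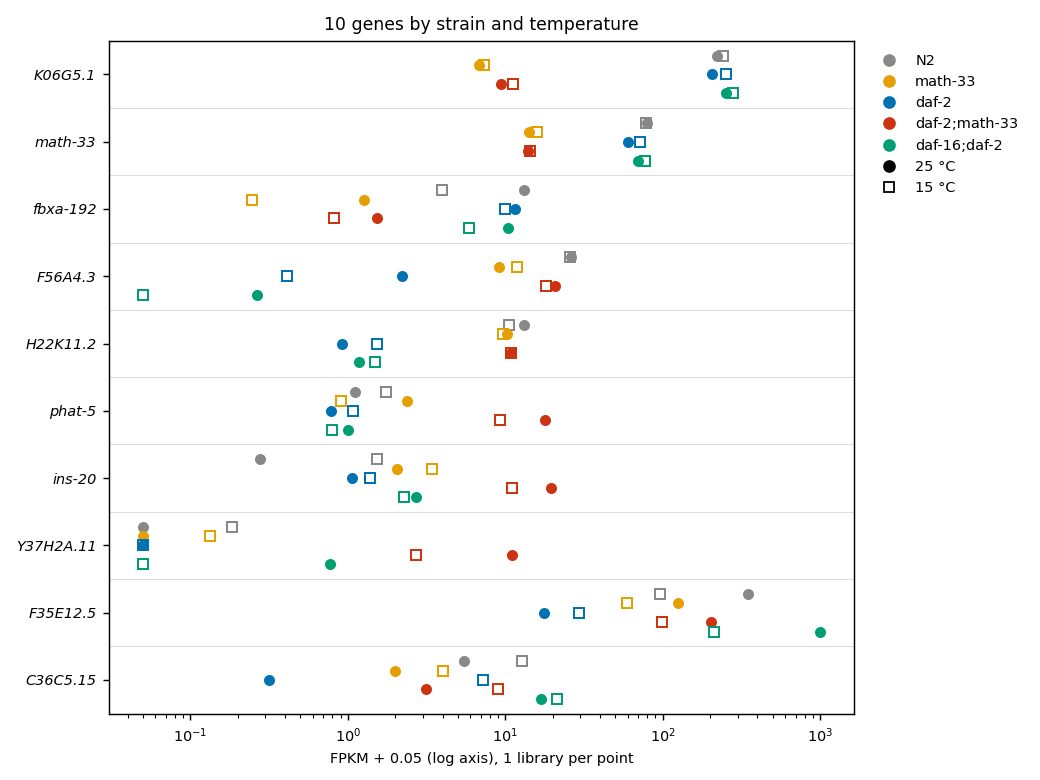
FPKM plus 0.05 on a log axis of 10 genes in the 10 libraries; each point is 1 library, filled circles are 25 °C, open squares are 15 °C, colours are genotypes, and values of 0 stand at 0.05. K06G5.1, math-33 and fbxa-192 are low in the math-33 single and double mutants, whereas F56A4.3 and H22K11.2 are low in daf-2 and the daf-16 double mutant.

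Among the 12 genes with the largest mean difference in each direction at both temperatures, the F-box gene fbxa-192, of a family linked to ubiquitin ligases, had 0.770 and 1.48 FPKM in the math-33 double mutant and 5.81 and 10.3 in the daf-16 double mutant. In math-33 it had 0.198 and 1.23 FPKM, and in N2 and daf-2 3.93 to 13.03, so it was low in both strains with math-33(tm3561). Reads of such paralogs may be shared. The O-acyltransferase gene oac-51 had 7.94 and 1.92 FPKM against 25.8 and 9.17, with 1.47 and 1.62 in math-33, 22.0 and 6.33 in N2 and 7.49 and 7.76 in daf-2. At 15 °C the math-33 double mutant thus lay level with daf-2, in which math-33 is intact. On the higher side stood genes of sperm, such as ssq-3 with 16.9 and 71.2 FPKM against 2.66 and 12.1. R09E10.2 had 5.57 and 35.8 FPKM against 0.531 and 3.63, and 15.5 and 101 in math-33. The acyl-CoA dehydrogenase gene acdh-2 was low at 25 °C in the math-33 double mutant, at 0.221 FPKM, and in daf-2, at 0.147. It had 9.43 FPKM there in the daf-16 double mutant, the highest of the 5 strains, and 2.63 in N2.

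Genes of sperm were the list that differed most. Of 62 tested, 48 were higher in the math-33 double mutant at 25 °C (77.4%, beside 9.36% of all genes). At 15 °C 44 were higher (71.0%, beside 6.54%), and at both 38 were (61.3%, beside 3.74%). None was lower, and the medians were 1.398 at 25 °C and 1.30 at 15 °C. The summed sperm signal was 1855 and 4232 FPKM in the math-33 double mutant at 15 and 25 °C, against 718 and 1373 in the daf-16 double mutant. It was 3242 and 7711 FPKM in math-33, 728 and 4068 in N2 and 579 and 948 in daf-2. Both math-33 mutant strains thus had more of it than the strain with the same receptor genotype and intact math-33 and daf-16. Major sperm proteins drive the crawling of nematode sperm. Of their 30 msp genes 22 were higher at both temperatures, as were 8 of 11 ssp genes, beside 3.74% of all genes. Their reads may be shared among paralogs. The gene msp-36 had 182 and 520 FPKM against 55.3 and 127, and fog-1, which specifies sperm fate in the germline, had 39.99 and 55.6 against 21.7 and 12.84. In limma on 10 libraries 0 of the 62 passed, and 47 had an unadjusted p under 0.05, beside 1922 of all 14700 genes. In the limma fit of the 4 libraries alone 39 were called higher at an adjusted p of 0.05, beside 3.85% of all genes. The part of the sperm signal in the other differences was not tested.

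Lists of adult and larval genes differed in opposite directions at 25 °C. Over 16 adult cuticle genes the median was 0.80 at both temperatures, with 5 higher at 25 °C (31.2%, beside 9.36% of all genes), 4 at 15 °C (25%, beside 6.54%) and 0 lower. The adult collagen gene col-19 had 262 and 572 FPKM against 114 and 339. Over 44 molting and larval genes it was -0.45 at 25 °C and -0.29 at 15 °C, with 10 lower (22.7%, beside 1.67%) and 0 higher at 25 °C, and 1 lower and 2 higher at 15 °C. The hedgehog-related gene wrt-10 had 229 and 108 FPKM against 341 and 303, and the larval matrix gene noah-1 had 276 and 141 against 454 and 314. Yolk protein genes had medians of 0.44 and 0.55 over 5 genes. Oocyte and eggshell genes had -0.13 at 25 °C and 0.48 at 15 °C. Muscle, intestine and neuron lists lay between -0.17 and 0.10 in both. The part of worm age in the differences between the strains was not tested.

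The strains also differed in opposite directions at the 2 temperatures in 56 genes past 1 log2 unit. Of these, 53 were higher in the math-33 double mutant at 25 °C and lower at 15 °C. They hold 11 collagen (col), 4 ground-like (grl) and 2 cuticlin (cut) genes, families of the cuticle, and 36 others. The others include the noncoding RNAs W08D2.11 and D2024.16, which lie within the spans of col-123 and col-114. Such overlapping genes may hold the same reads and then be counted more than once. Collagen genes were 20.8% of the 53, beside 0.959% of all genes tested, and 34 of the 53 (64.2%, beside 20.1% of all genes) lie on chromosome V. Some of those on chromosome V are near neighbours counted one by one, such as C13A2.3, C13A2.4, C13A2.9 and C13A2.10, or K08D9.2 and K08D9.6. In 52 of the 53 the daf-16 double mutant level was lower at 25 °C than at 15 °C, and in all 53 the math-33 double mutant level was higher at 25 °C. These counts of levels lower or higher at 25 °C follow in part from picking genes with opposite differences. In 40 both N2 libraries were under 1 FPKM, so these genes passed the expression filter through other strains. The share of all genes this low in N2 was not counted. The collagen gene col-36 had 111 and 273 FPKM in the math-33 double mutant and 384 and 7.31 in the daf-16 double mutant, and daf-2 had 2.65 and 391. The dauer cuticlin gene cut-1 had 56.4 and 114 FPKM in the math-33 double mutant, 131 and 6.63 in the daf-16 double mutant and 0.089 and 74.3 in daf-2. For col-36 and cut-1 the daf-2 libraries were thus low at 15 °C and high at 25 °C, the daf-16 double mutant libraries the reverse, and the math-33 double mutant high at both.

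To describe these genes more widely, a set was formed after their values had been seen: genes at or below 1 FPKM in all 4 N2 and math-33 libraries and at 10 FPKM or more in at least 1 of the 4 libraries compared. It holds 42 genes, among them 20 collagen, 7 ground-like and 1 cuticlin gene, and it gets no test because it was chosen on these values. The noncoding RNAs D2024.16, T13B5.10 and ZK863.10 in it lie within the spans of col-114, col-40 and col-37, so their reads may be counted again. Its median level was 20.5 and 34.2 FPKM in the math-33 double mutant at 15 and 25 °C, and 26.5 and 6.13 in the daf-16 double mutant. In daf-2 it was 0.200 and 21.6, and in N2 0.0655 and 0.102. All 42 were above the daf-16 double mutant at 25 °C, 41 of them by 1 log2 unit, whereas at 15 °C 18 were lower and 6 higher. Dauer markers as a list had 6 higher (28.6%, beside 9.36% of all genes) and 0 lower at 25 °C, of 21 tested. At 15 °C 5 were higher (23.8%, beside 6.54%) and 2 lower (9.52%, beside 1.47%). Of the 6, col-40, col-183, col-2 and cut-1 belong to the set of 42, cut-6 to the genes of opposite direction and sod-3 to the activated targets. The 2 lower at 15 °C were cut-1 and cut-6. The list therefore repeats genes already described and is no separate support.

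**Figure D4:**
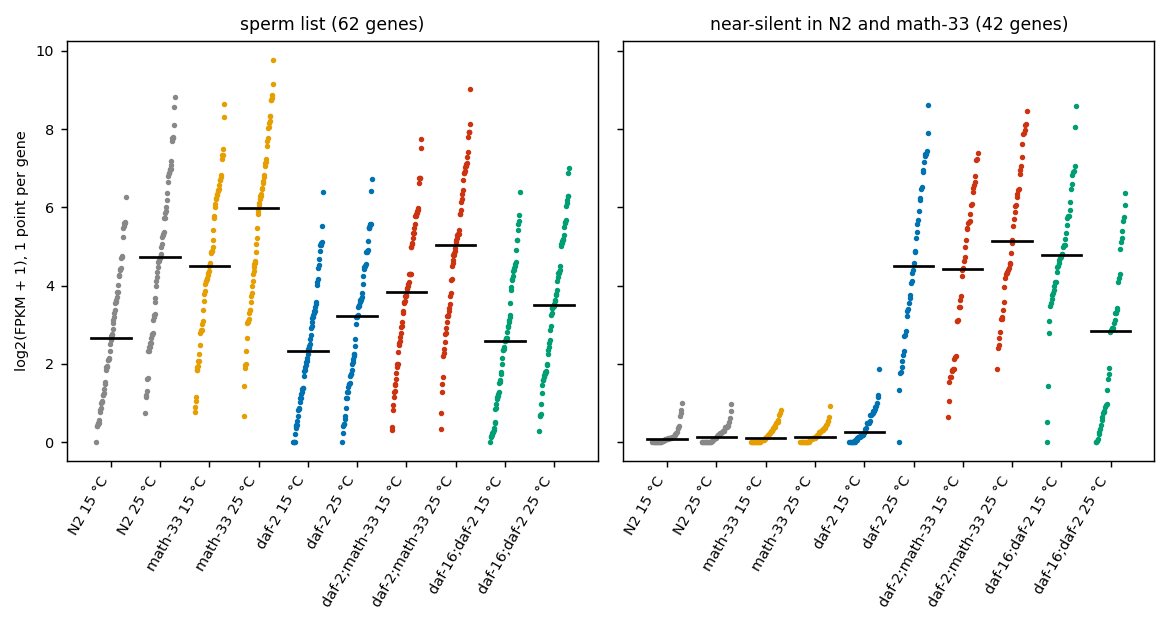
log2(FPKM + 1) of the 62 sperm genes (left) and of the 42 genes near-silent in N2 and math-33 (right) in each library; points are genes, sorted within a library, and black bars are medians. The sperm bars are higher in the math-33 single and double mutants than in daf-2 and the daf-16 double mutant, and the near-silent set is high in both math-33 double mutant libraries, in daf-2 at 25 °C and in the daf-16 double mutant at 15 °C.

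Genes were then picked in strains that share no library with the comparison. At 25 °C 1237 genes were higher in daf-2 than in N2 by 1 log2 unit or more, and in the comparison at 25 °C their median was 0.27 beside 0.07 for all genes, with 18.03% higher and 2.75% lower, beside 9.36% and 1.67% of all genes. Genes lower in daf-2 than in N2 numbered 1174, and their median was 1.008, with 50.3% higher and 2.81% lower. At 15 °C the medians were 0.40 for 265 genes higher in daf-2 and 0.14 for 238 lower ones, beside 0.15 for all genes. There 14.3% and 13.9% were higher and 3.77% and 9.66% lower, beside 6.54% and 1.47% of all genes. The sperm list is part of this, with 48 of its 62 genes lower in daf-2 than in N2 at 25 °C. Genes above N2 in math-33 had medians of 0.60 at 25 °C (608 genes, 28.6% higher) and 0.86 at 15 °C (1576 genes, 39.5% higher). Genes below N2 in math-33 had -0.10 (896 genes) and -0.24 (252 genes).

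Genes that differed by 1 log2 unit or more between daf-2 and the daf-16 double mutant were picked at 1 temperature. They were read at the other temperature, which keeps the libraries apart though not the strain. Each pick rests on 1 library per strain. For the 453 genes that daf-2 had above the daf-16 double mutant at 15 °C, the median at 25 °C was 0.15, with 15.0% higher and 2.65% lower, beside 9.36% and 1.67% of all genes. For the 883 such genes at 25 °C, the median at 15 °C was 0.26, with 12.797% higher and 5.66% lower, beside 6.54% and 1.47%. The medians of all genes were 0.07 and 0.15. After centring the picked genes had medians of -0.02 and 0.03, beside -0.123 and -0.068 for all genes. Genes lower in daf-2 had medians of 0.11 (584 genes, 23.5% higher and 6.16% lower) and -0.01 (515 genes, 11.07% higher and 5.44% lower). Genes picked in either direction thus passed 1 log2 unit in both directions more often than all genes.

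Of the 550 genes higher at both temperatures, 482 (87.6%, beside 12.97% of all genes) were also higher in math-33 than in N2 at 1 temperature or more. For daf-2 against N2 the count was 57 (10.4%, beside 9.35% of all genes). There were 28 in both groups and 39 in neither. At both temperatures at once, 77 of the 550 were higher in math-33 than in N2, which is 14% of the 550, beside 1.88% of all genes, and 27.8% of the 277 such genes. Of the 30 lower genes, 9 were lower in math-33 at both temperatures, 30% of these, beside 0.51% of all genes, and 12% of the 75 such genes.

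**Figure D5:**
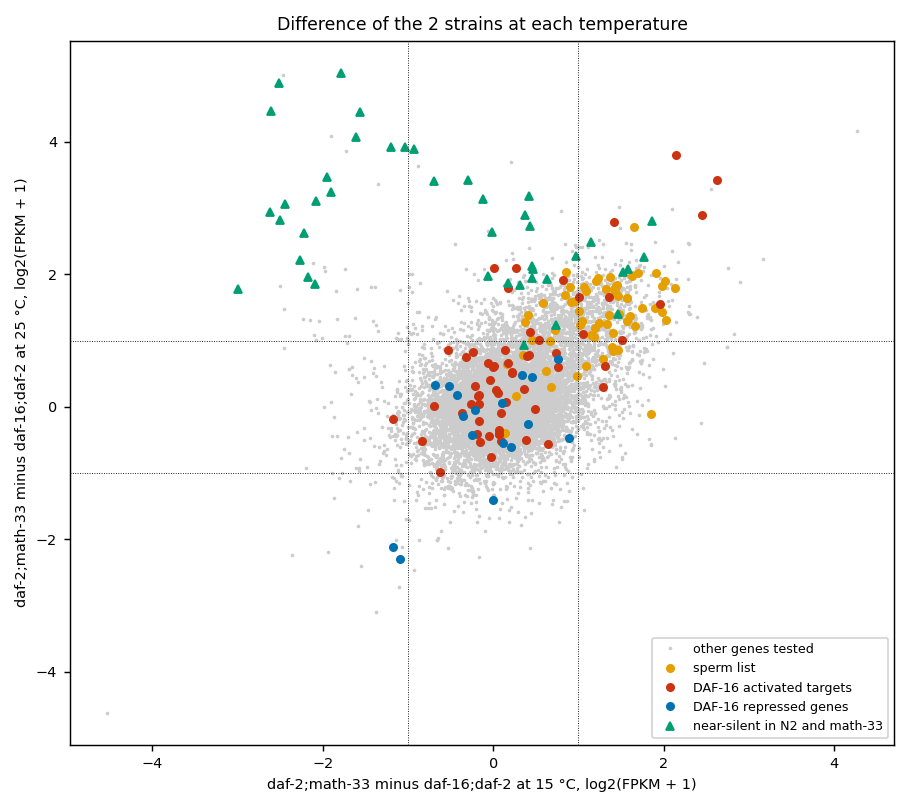
Difference between the math-33 double mutant and the daf-16 double mutant at 15 °C (x axis) and 25 °C (y axis), in log2(FPKM + 1); each point is 1 gene and dotted lines mark 1 log2 unit. Sperm genes lie in the upper right, a few activated targets lie higher still, most genes near-silent in N2 and math-33 lie above 0 at 25 °C with low values at 15 °C, and K06G5.1 is alone at the lower left.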

How the data were processed

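Poly(A) RNA of 10 whole-worm samples, 1 per genotype and temperature, was sequenced as stranded paired-end libraries, per the labels' protocols. The authors deposited FPKM for 47467 transcripts; the submitters' processing notes name STAR, HOMER, edgeR and build ce10, and the sources used here give neither roles nor versions. How reads of overlapping genes or paralogs were assigned is not given either. Rows with no gene name (1104 transcripts, 1.72 to 1.97% of a library's summed FPKM) were left out.

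The transcript with the highest mean FPKM stood for each of 40851 symbols. Symbols of 200 bases or more (21108) that reached 1 FPKM in 2 libraries or more (14700) were tested on log2(FPKM + 1), a scale that understates changes of weakly expressed genes. Depth (25.21 to 35.22 M reads, 12.61 to 17.61 M pairs) came from whole steps in low FPKM values of transcripts of 300 to 1500 bases, 100.0% of them whole within the table's rounding plus 0.01%. A count of 0 has a floor of 3 pairs, or 0.17 to 0.238 FPKM at 1000 bases. Counts recovered in this way were used for intervals only, since mates of a pair make them uncertain; no count model was fitted. The linear model used limma 3.58.1 (R 4.3.3) with a mean-variance trend and 4 residual degrees of freedom, and was tested on simulated data.

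The named genes were the mutated genes, those passing limma, the 12 with the largest mean difference in each direction past 1 log2 unit at both temperatures, the 8 largest in each direction at 1 temperature alone, and genes of the 19 lists. Members and lists were chosen with earlier results of these data known, so they are not independent support for those results. Of the genes tested 14488 (98.6%) matched a RefSeq locus of assembly WBcel235, used for current names alone. Alternatives were other pseudocounts, filters, scalings, row choices, fits and leaving out each library.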

Additional observations from a re-analysis of the deposited data

Results flagged for a closer look

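The direction of the difference between the math-33 double mutant and the daf-16 double mutant turned between temperatures in 56 genes, each at least 1 log2 unit in opposite directions at 15 and 25 °C. The difference between the temperatures was not tested, since there is 1 library for each strain and temperature. The 6 with the largest turn are given as the difference at 25 °C minus the difference at 15 °C: W08D2.11, a noncoding RNA, with 7.48 log2 units, the collagen gene col-123 with 7.41, the ground-like gene grl-19 with 7.07, and the collagen genes col-36 with 6.83, col-84 with 6.02 and col-158 with 5.99. W08D2.11 had 28.9 and 89.6 FPKM in the math-33 double mutant at 15 and 25 °C, and 164 and 1.80 in the daf-16 double mutant. For grl-19 the values were 7.64 and 21.003 FPKM against 51.8 and 0. How reads of collagen paralogs were divided is not given in the sources used.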

How the results depend on the processing

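No paired analysis by replicate number was possible because each group has 1 library and the labels carry no such number. The strains were paired by temperature, a term of the fits over 10 libraries and over the 4 alone. Sums over alternatives: 271 values stayed near the main value, 79 moved further without a change of sign, 18 limma results lost the threshold and 22 values reversed sign. Near meant within a set ratio for counts, and inside the main 95% interval for medians. For single genes in limma it meant the same direction and an adjusted p under 0.05. Counts of genes moved with a pseudocount of 0.1 to 524 lower at 25 °C, 1850 higher and 490 lower at 15 °C, and 1050 higher and 92 lower at both. A filter of 5 FPKM gave 157 lower at 25 °C and 123 at 15 °C. Centring gave 471 lower at 25 °C, 570 higher and 406 lower at 15 °C, and 305 and 61 at both; quantile normalization gave 486, 583, 417, 329 and 65. The limma contrast called 4 genes, 11 with no filter, 8 with no trend, 605 in the 4 libraries alone, and 1 to 136 when 1 library was left out, the highest without N2 at 15 °C (136) and at 25 °C (125).

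Centring and quantile normalization move all genes: their median became -0.123 at 25 °C and -0.068 at 15 °C with centring, and -0.060 and -0.008 with quantile normalization. List medians turned below 0 with centring by this common shift at 15 °C for all activated targets (-0.123), their stress (-0.039), immune (-0.077) and metabolic (-0.15) parts, DAF-16 regulators (-0.08), muscle (-0.178), dauer (-0.039) and deubiquitylating genes (-0.018), and at 25 °C for regulators (-0.077), germline (-0.145) and neurons (-0.093). Quantile normalization reversed regulators (-0.008), germline (-0.038) and neurons (-0.053) at 25 °C and the proteasome (0.015) at 15 °C, and a filter of 5 FPKM reversed repressed genes at 15 °C (0.115). At 25 °C the activated median stayed above 0 under the 5 alternatives run, from 0.299 with no filter to 0.552.

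Medians of genes picked in other strains are given in the order 25 °C higher, 25 °C lower, 15 °C higher, 15 °C lower. For daf-2 against N2 they were 0.077, 0.791, 0.163 and -0.098 with centring, where the last reversed, and 0.127, 0.786, 0.151 and -0.092 with quantile normalization. At 2 log2 units the first 3 were 0.813, 1.288 and 0.778. A pseudocount of 0.1 gave 0.484 and 0.513 at 15 °C, and 5 FPKM gave 1.165 for the 25 °C lower and 0.312 for the 15 °C lower genes. For math-33 against N2 they were 0.386, -0.296, 0.724 and -0.382 with centring, 0.407, -0.266, 0.751 and -0.351 with quantile normalization, 1.063 and -0.139 at 15 °C with a pseudocount of 0.1, and 0.694 and 0.964 for higher genes with 5 FPKM. For daf-2 against the daf-16 double mutant, picked at 15 °C higher and lower and then at 25 °C higher and lower, they were -0.022, -0.111, 0.034 and -0.219 with centring, 0.012, -0.056, 0.05 and -0.165 with quantile normalization, and 0.342, 0.337, 0.345 and 0.095 with a pseudocount of 0.1. The cause of these changes was not tested. Genes under about 1 FPKM rest on few read pairs, and their folds are the least precise.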

Other observations

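A few genes were high in the math-33 double mutant alone. Both of its libraries were at least 1 log2 unit above all other 8 libraries in 4 genes, picked on this pattern: phat-5, ins-20, Y37H2A.11 and T05B4.8. The pharyngeal gland toxin-related gene phat-5 (chrV:4121593-4122454, ce10) had 9.25 and 17.95 FPKM at 15 and 25 °C, and 0.731 to 2.32 elsewhere. The insulin-like peptide gene ins-20 had 11.1 and 19.5 FPKM, and 0.227 to 3.37 elsewhere. Y37H2A.11 had 2.65 and 10.97 FPKM, and at most 0.717 elsewhere. T05B4.8 (chrV:4115177-4116721), which lies beside phat-5, had 2.09 and 2.14 FPKM and at most 0.481 elsewhere. In limma the adjusted p of phat-5 was 0.0864. The reverse pattern, with both daf-16 double mutant libraries at least 1 log2 unit below all other 8, was met by 0 genes.

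Among the 8 genes with the largest difference in each direction at 1 temperature alone, those given here were chosen after their values were seen. At 25 °C alone, the insulin-like peptide gene ins-19 had 0.443 and 11.98 FPKM in the math-33 double mutant and 0.245 and 0 in the daf-16 double mutant, and 4.45 and 8.38 in math-33. The histone gene his-38 had 4.47 and 50.6 FPKM against 4.70 and 7.17. The secretory LDL-motif gene hen-1, used in sensory integration, was lower, with 2.66 and 0.626 FPKM against 3.17 and 4.45. At 15 °C alone, mec-3, a transcription factor gene of touch neurons, had 0.643 FPKM against 4.22, and 4.504 against 3.81 at 25 °C. The heme-transport gene hrg-3 had 9.70 against 38.1 FPKM at 15 °C.

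Genes near the mutated loci were counted within 1 Mb on each side. Around math-33, 28 of 400 tested genes were higher and 9 lower at 25 °C. Around daf-16, 39 of 310 were higher and 6 lower, and the gene counts over the whole genome are 1376 and 245 of 14700.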
